A study of Mus musculus with 6 samples.

Results

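The genes described here encode the classical axon guidance ligands and their receptors: ephrins and Eph receptor kinases, Slits and Robo receptors, and netrins with Dcc, neogenin and the Unc5 receptors. Members of these families were matched by gene symbol, which gave 41 of the 24067 genes in the deposited table, 17 ligands and 24 receptors. RNA came from the submandibular gland of embryonic day 13 mice of the ICR stock, as 3 libraries of blebbistatin-treated and 3 of control tissue. Blebbistatin is a small molecule that inhibits the ATPase of non-muscle myosin II, and the comparison asks which transcripts differ when that motor is blocked. All 6 libraries share strain, tissue and age, and no genetic alteration is labelled. The labels name no dose, duration, vehicle or number of embryos behind a library. The series title names epithelial buds where the tissue label names the whole gland. No label ties replicate libraries to separate cultures or litters, so p-values below reflect only how these libraries vary, which could be technical variation.

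Ephrins are ligands bound to the cell surface, the A class by a lipid anchor and the B class by a transmembrane segment with a signalling tail of its own. Eph receptors bind them on neighbouring cells, and the contact can signal into both cells. Slits are secreted and act through Robo receptors. Netrins are laminin-related proteins that bind Dcc, neogenin and Unc5 receptors. All these families also act outside the nervous system: in the mammary gland, netrin-1 and neogenin hold the outer cap cells of the growing end bud to the layer within, and Slits with Robo1 restrain branching.

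Depth, estimated from the step that 1 fragment makes in low FPKM values, was about 27600000 to 28300000 fragments in blebbistatin libraries and 28200000 to 33600000 in control libraries. FPKM scales the fragments of a gene by transcript length and library total, so levels can be compared between genes. All 12 epithelial markers averaged at least 1 FPKM, and their sum was 1502 to 1960 FPKM in blebbistatin and 1546 to 1945 in control libraries. The 12 mesenchymal markers summed to 338 to 375 and 282 to 359 FPKM, nearly all of it vimentin, and Col1a1 lay between 0.588 and 1.02 and between 0.843 and 3.06 FPKM. Endothelial markers were all under 1 FPKM in every library (sum 1.00 to 1.17 in blebbistatin, 0.683 to 0.930 in control libraries), with Cdh5 at 0 in the 3 blebbistatin libraries. Neuronal markers summed to 1.55 to 2.95 and 0.615 to 3.41 FPKM, leukocyte markers to 1.88 to 4.18 and 2.80 to 3.21 FPKM, and skeletal muscle markers to 7.40 to 10.8 and 11.0 to 17.8 FPKM. Most of the muscle sum was Myh3, which overlapped between the groups (7.28 to 10.4 and 10.3 to 11.2 FPKM). The highest muscle sum, in control replicate 3, also held Acta1 at 2.67 FPKM. The 10 Schwann cell markers, which include Sox10 and Erbb3 of the bud epithelium, summed to 196 to 246 and 307 to 343 FPKM. End bud markers summed to less in blebbistatin libraries (945 to 1165 FPKM, against 1251 to 1368 in controls), while the sum of duct markers overlapped (354 to 608 and 384 to 581 FPKM). Of the 10 end bud markers tested, 5 were lower and 1 higher without overlap (60.0%, against 14.3% of all genes), 4 had an unadjusted p under 0.05 (40.0%, against 9.36%), and 0 passed the adjusted threshold in limma. In bulk tissue, fewer cells of a type and less RNA per cell cannot be told apart, and what part these marker differences have in the values below was not tested.

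Of the 41 genes, 24 averaged at least 1 FPKM and were tested, 11 ligands and 13 receptors. None passed an adjusted p of 0.05 in limma, where 0.0780% of the 11540 genes tested did (9 genes). At an unadjusted p under 0.05 there were 7 members, or 29.2% of those tested, where 9.36% of all tested genes met that mark. Of these 3 were higher and 4 lower in blebbistatin libraries, beside 4.46% of all genes higher and 4.90% lower. The groups did not overlap for 7 members, where 14.3% of all tested genes did not overlap. Of these 4 were higher and 3 lower, beside 7.48% and 6.80% of all genes. The log2 fold change was above 0 for 7 of the 24 members, and for 55.2% of all genes tested. The median log2 fold change (blebbistatin minus control, on log2(FPKM + 1)) was -0.03 for ligands and -0.16 for receptors, beside 0.01 for all genes tested. Members were chosen with earlier results of these data known. Ntn1, in both sets of 7, passed the filter of 1 FPKM only through its blebbistatin values. The shares above therefore describe these genes and do not test the families. Since no member passed the adjusted threshold, the differences below are given as values with their intervals.

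**Figure D1:**
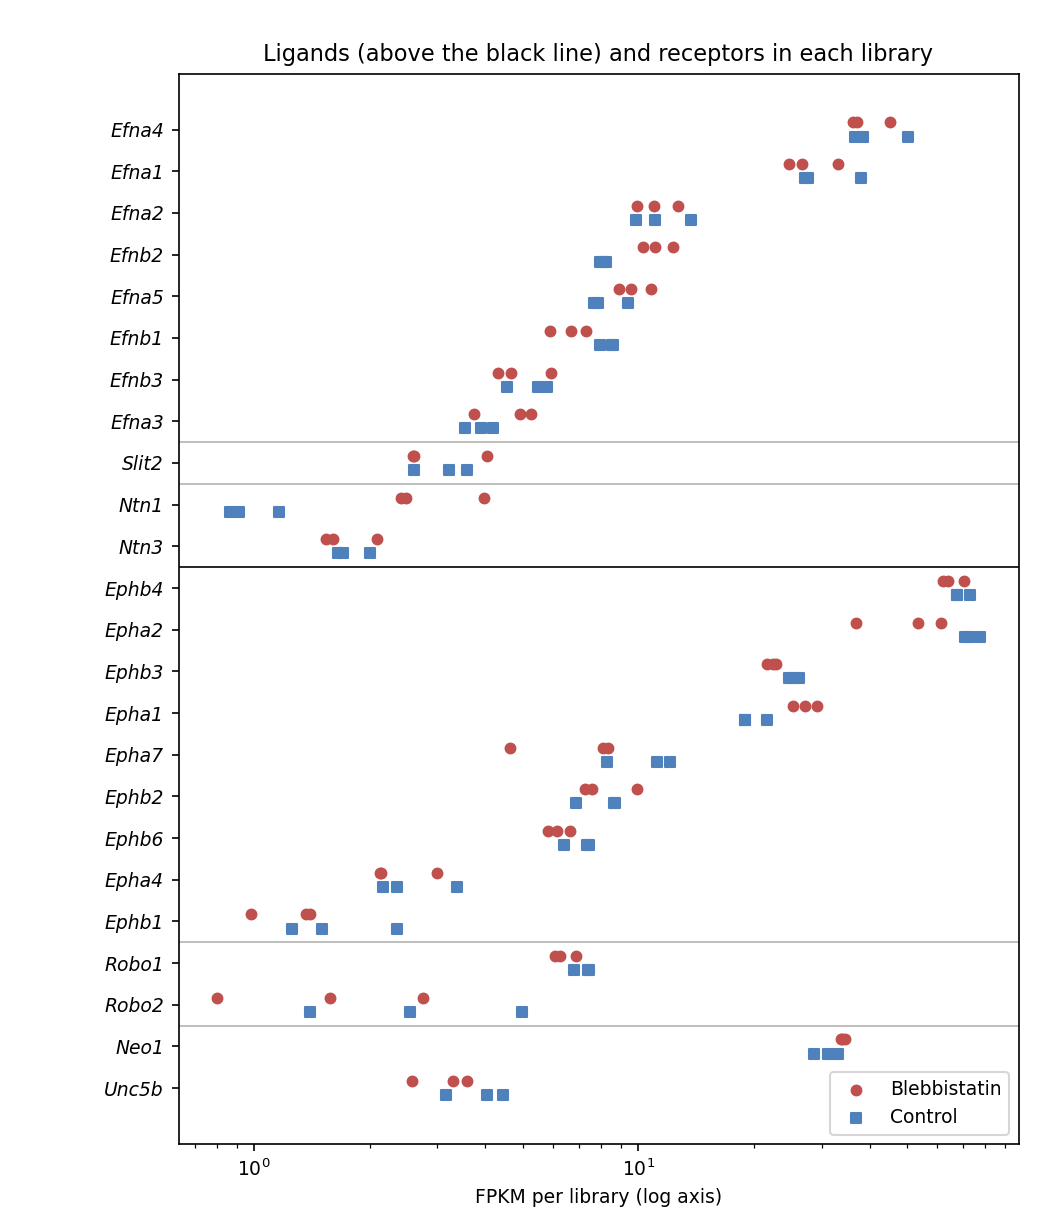
FPKM on a log axis (horizontal) of the 24 guidance genes that averaged at least 1 FPKM, 1 point per library, with blebbistatin libraries as circles above control libraries as squares in each row. Ligands stand above the black line and receptors under it; the Ntn1 circles lie to the right of all its squares and the Epha2 circles to the left of all of its own.

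Among the ligands, netrin-1 showed the largest difference of any tested member. Ntn1 stood at 3.97, 2.48 and 2.41 FPKM in blebbistatin libraries, against 1.16, 0.915 and 0.863 FPKM in control libraries. Every blebbistatin value lay above every control value, and blebbistatin replicate 1 was the highest. The means were 2.96 ± 0.88 and 0.980 ± 0.16 FPKM (SD, n = 3 each), a ratio of 3.02. These levels correspond to an estimated 643, 403 and 381 fragments in blebbistatin libraries and 188, 176 and 141 in control libraries. The part of counting error in the difference was not tested. The log2 fold change was 0.98 ± 0.16 (SE, 95% interval 0.61 to 1.35), which did not pass after adjustment over all genes (adjusted p = 0.0785, limma), and Ntn1 ranked 41 of 11540 by p. Its control mean lies under the filter of 1 FPKM, so it was tested because of its blebbistatin values. With no filter its adjusted p was 0.204, and with libraries weighted by their fit it was 0.0437, within a range of 0.0338 to 0.253 over all alternatives. A pseudocount of 0.1 in place of 1 gave a log2 fold change of 1.47. On mm10, Ntn1 lies on the minus strand of chromosome 11 from 68209364 to 68386826, and its exons overlap no other gene of the deposited annotation.

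The other netrins were at or under 2.1 FPKM. Ntn3, the netrin known from muscle and ganglia, stood at 2.09, 1.61 and 1.54 FPKM in blebbistatin and 2.01, 1.70 and 1.66 FPKM in control libraries, so that the groups overlapped (log2 fold change -0.03 ± 0.12, SE); 89 of its 4899 exon bases are shared with Tbc1d24. Ntn4, a netrin of basement membranes that binds laminin, averaged under 1 FPKM and was not tested. It had 1.18, 0.572 and 0.416 FPKM in blebbistatin libraries and 0.693, 0.456 and 0.566 FPKM in control libraries, and only blebbistatin replicate 1 stood out. Of the netrin-G ligands, which are lipid-anchored and do not bind Dcc, Ntng2 had 0.382, 0.334 and 0.330 FPKM in blebbistatin and 0.522, 0.261 and 0.394 FPKM in control libraries, with 213 of its 1770 exon bases shared with 6530402F18Rik on the same strand. Ntng1, singled out after its values were seen, had 0.404, 0.234 and 0.393 FPKM against 0.150, 0.0976 and 0.214 FPKM in controls, with no overlap. Netrin-1 made up 48.0 ± 1.04% of the summed netrin FPKM in blebbistatin libraries and 25.2 ± 1.75% in controls (SD, n = 3 each).

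**Figure D2:**
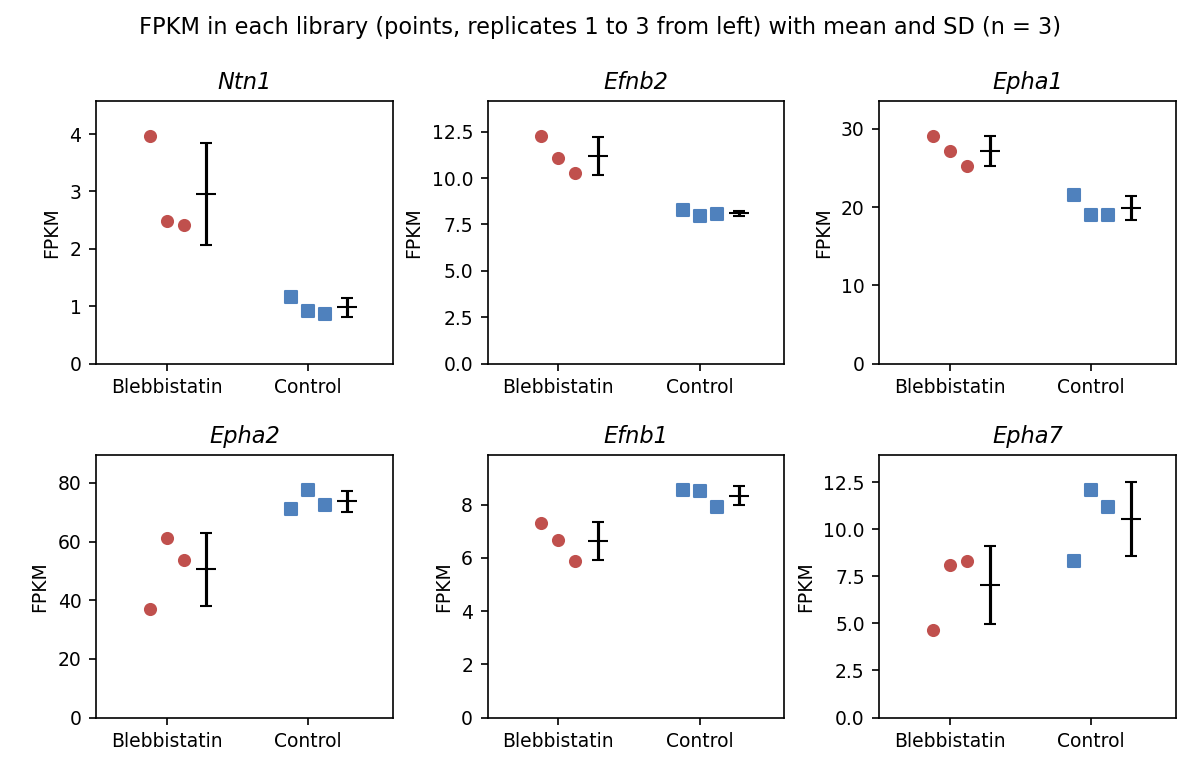
FPKM (vertical axes) of the 6 members with the smallest unadjusted p, with 1 point per library and the mean and SD (n = 3) beside each group. Ntn1, Efnb2 and Epha1 are higher and Epha2 and Efnb1 lower in every blebbistatin library than in any control library, while the Epha7 value of control replicate 1 (8.31 FPKM) lies just under that of blebbistatin replicate 3 (8.33 FPKM).

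Among the B-class ephrins, Efnb2 was higher and Efnb1 lower under blebbistatin, neither past the adjusted threshold. Efnb2, the ligand of Ephb4 in the arteries and veins of the embryo, stood at 12.3, 11.1 and 10.3 FPKM in blebbistatin libraries and 8.26, 7.97 and 8.08 FPKM in control libraries. Its groups did not overlap, and the 3 controls lay within 0.3 FPKM of each other. The log2 fold change was 0.42 ± 0.09 (SE, 95% interval 0.21 to 0.63, adjusted p = 0.138, limma). Efnb1, an X-linked ephrin whose loss disturbs craniofacial boundaries, had 7.33, 6.67 and 5.90 FPKM in blebbistatin libraries and 8.57, 8.53 and 7.93 FPKM in control libraries. Here every blebbistatin value was the lower (log2 fold change -0.30 ± 0.10, SE, 95% interval -0.52 to -0.07, adjusted p = 0.318, limma). Efnb3, a ligand of the midline of the spinal cord, overlapped at 4.30, 4.66 and 5.93 FPKM in blebbistatin and 5.78, 4.54 and 5.50 FPKM in control libraries.

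Set against each other within a library, the ratio of Efnb2 to Efnb1 was 1.68, 1.66 and 1.74 in blebbistatin libraries and 0.963, 0.934 and 1.02 in control libraries. This ratio, chosen after its values were seen and therefore not tested, does not depend on how a library was scaled. Efnb2 made up 49.1 ± 2.48% of the summed ephrin-B FPKM under blebbistatin and 37.3 ± 0.713% in controls (SD, n = 3 each). The sum itself overlapped between the groups, at 23.9, 22.4 and 22.1 FPKM in blebbistatin and 22.6, 21.0 and 21.5 FPKM in control libraries. The 10 endothelial markers, genes of the vessels in which Efnb2 marks arteries, were all under 1 FPKM in every library and were not tested. Of the 10, 2 were higher and 1 lower without overlap, and the others overlapped. Pecam1 and Tek, which made up most of the sum, were the higher ones. Cdh5 was the lower one, at 0 against 0.0148 to 0.0441 FPKM in control libraries. The sum of the 10 was 1.00 to 1.17 FPKM in blebbistatin and 0.683 to 0.930 FPKM in control libraries, and its part in the Efnb2 values was not tested.

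**Figure D3:**
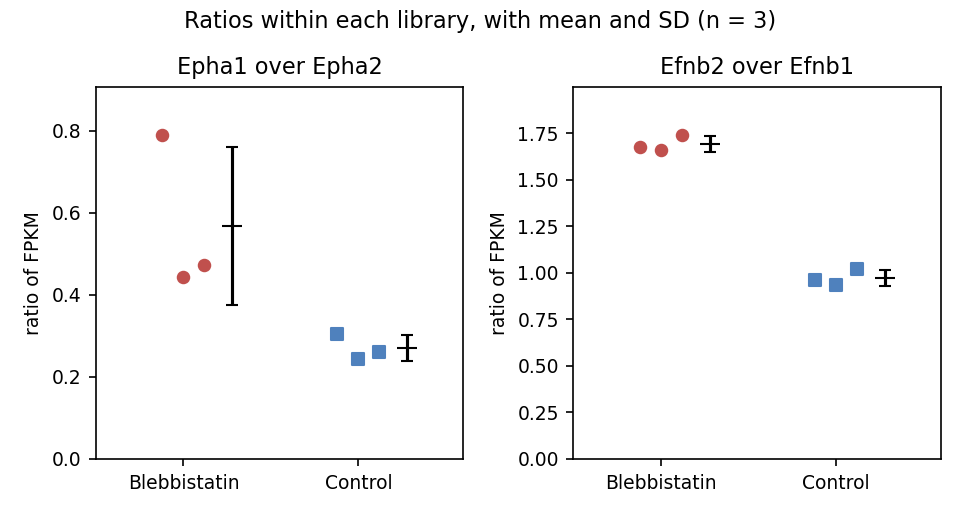
Ratios of FPKM within each library (vertical axes, from 0) for a pair of EphA receptors and a pair of B-class ephrins, with mean and SD (n = 3) beside the points. The ratio of Efnb2 to Efnb1 spans 1.66 to 1.74 in blebbistatin and 0.934 to 1.02 in control libraries; the ratio of Epha1 to Epha2 is highest in blebbistatin replicate 1, at 0.789.

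The A-class ephrins were the more abundant class and overlapped between the groups for all 5 members. Efna4 and Efna1 led, at 45.3, 36.1 and 37.1 FPKM and 33.1, 26.7 and 24.7 FPKM in blebbistatin libraries, against 50.3, 36.7 and 38.4 FPKM and 38.0, 27.1 and 27.6 FPKM in control libraries. In each group replicate 1 was the highest library for both genes. Together they held 72.5 ± 1.19% of the ephrin-A FPKM in blebbistatin libraries and 75.2 ± 2.55% in controls (SD, n = 3 each). Efna2 had 12.7, 11.0 and 9.95 FPKM in blebbistatin and 13.7, 11.0 and 9.89 FPKM in control libraries. Efna5, which guides retinal axons, stood at 10.8, 9.59 and 8.93 FPKM in blebbistatin libraries against 7.87, 9.41 and 7.66 FPKM in controls. Its log2 fold change of 0.21 ± 0.11 (SE, 95% interval -0.04 to 0.46) spans 0. Efna3 was the least abundant, at 5.25, 4.92 and 3.74 FPKM in blebbistatin and 4.18, 3.90 and 3.53 FPKM in control libraries.

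Of the Slits, Slit2 was present at 4.05, 2.60 and 2.59 FPKM in blebbistatin libraries and 2.60, 3.59 and 3.22 FPKM in control libraries. The groups overlapped widely, with a log2 fold change of -0.03 ± 0.16 (SE). Slit1 and Slit3 did not exceed 0.160 FPKM in any library.

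Among the receptors, the 2 most abundant EphA kinases differed in opposite directions. Epha2, a receptor of epithelia that binds A-class ephrins and is a target of mitogenic signalling, stood at 37.0, 61.3 and 53.6 FPKM in blebbistatin libraries, against 71.0, 77.7 and 72.5 FPKM in control libraries. All blebbistatin values were lower, and replicate 1 was the lowest. The log2 fold change was -0.56 ± 0.17 (SE, 95% interval -0.95 to -0.17, adjusted p = 0.277, limma), and -0.36 without blebbistatin replicate 1. Epha1, also an epithelial member of the class, stood at 29.2, 27.1 and 25.3 FPKM in blebbistatin libraries and 21.6, 19.0 and 19.0 FPKM in control libraries. Here all blebbistatin values were higher (log2 fold change 0.44 ± 0.09, SE, 95% interval 0.22 to 0.65, adjusted p = 0.138, limma).

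Of the exon bases of Epha1, 236 of 3273 are also exon bases of Zyx, which runs the other way, and fragments there could count for either gene since no source states the strand of the libraries. Zyx, which encodes the focal adhesion protein zyxin, had 68.0, 69.5 and 56.3 FPKM in blebbistatin libraries and 67.4, 67.7 and 55.9 FPKM in control libraries, so it did not separate the groups. The ratio of Epha1 to Epha2 was 0.789, 0.443 and 0.472 in blebbistatin libraries and 0.305, 0.244 and 0.261 in control libraries. Like that of Efnb2 to Efnb1, this ratio was chosen after its values were seen and was not tested. The ratio and the shares that follow restate the opposite differences of Epha1 and Epha2. Epha2 made up 57.1 ± 6.31% of the EphA receptor FPKM under blebbistatin and 68.5 ± 0.185% in controls, and Epha1 31.6 ± 6.71% and 18.5 ± 2.07% (SD, n = 3 each). Within control libraries the Epha2 share varied little, between 68.3% and 68.6%.

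Upstream sequence is shown for the members of smallest p for which RefSeq (GRCm38.p6, the assembly of mm10) gives a start, since their differences run both ways. Of the 4 with the smallest p, Ntn1 has no entry in that table. Each line holds the 250 bases before the start, 5′ to 3′ on the strand of the gene, with matches on either strand in capitals to GGAATG (the core bound by TEAD factors, the partners of YAP), TATAAA and GGGCGG (the GC box of Sp1). No match overlaps another in these windows.
Efnb2: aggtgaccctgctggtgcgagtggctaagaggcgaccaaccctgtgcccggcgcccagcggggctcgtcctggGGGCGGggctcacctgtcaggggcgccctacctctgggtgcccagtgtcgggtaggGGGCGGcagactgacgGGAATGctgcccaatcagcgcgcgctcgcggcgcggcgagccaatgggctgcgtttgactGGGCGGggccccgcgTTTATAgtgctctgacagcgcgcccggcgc
Epha1: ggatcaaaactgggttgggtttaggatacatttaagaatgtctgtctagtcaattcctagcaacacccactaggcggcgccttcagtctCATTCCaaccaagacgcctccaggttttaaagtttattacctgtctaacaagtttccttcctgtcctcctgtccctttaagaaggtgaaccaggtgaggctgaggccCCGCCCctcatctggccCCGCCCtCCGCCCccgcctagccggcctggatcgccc
Epha2: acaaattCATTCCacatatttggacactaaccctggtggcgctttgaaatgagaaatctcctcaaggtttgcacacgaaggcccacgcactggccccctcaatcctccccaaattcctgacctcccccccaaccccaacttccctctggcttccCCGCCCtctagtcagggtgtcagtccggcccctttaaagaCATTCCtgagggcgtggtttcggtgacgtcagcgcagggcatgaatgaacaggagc
These windows are chr8:8661243-8661492 on the minus strand for Efnb2, chr6:42373269-42373518 on the minus strand for Epha1 and chr4:141300971-141301220 on the plus strand for Epha2. The start of Efnb2 in that table lies upstream of the deposited one (offset of -469 bases), and those of Epha1 and Epha2 are the deposited starts.

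GGAATG occurred once in the Efnb2 and Epha1 windows and at 2 places in the Epha2 window. Among tested members with an entry, 4 of 22 held it (18.2%), against 12.6% of 32536 RefSeq windows of the same length. GGGCGG was held by 16 of the 22 (72.7%), against 33.0% of all windows, TATAAA by 2 of the 22 (Slit2 and Efnb2) and 12.3%, and the CArG box of SRF by 1 (Robo1) and 1.48%. The AP-1 element TGANTCA was in 0 of the 22 and in 6.73% of all windows. The 32536 windows were not limited to genes expressed here or to 1 start per gene, as the 22 were. These shares therefore compare unlike sets, and whether other expressed genes differ from the 22 was not tested. GGAATG was present in windows of genes whose values were higher and of genes whose values were lower, and a match is a description of these letters only.

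Epha7, a receptor of the patterned neural tube and limb, was the third EphA kinase past 5 FPKM. It stood at 4.63, 8.10 and 8.33 FPKM in blebbistatin libraries and 8.31, 12.1 and 11.2 FPKM in control libraries. The groups touched, since blebbistatin replicate 3 matched control replicate 1 to within 0.03 FPKM. Its log2 fold change was -0.55 ± 0.21 (SE, 95% interval -1.03 to -0.06, adjusted p = 0.435, limma), and -0.31 without blebbistatin replicate 1. Epha4, which binds ephrins of both classes, overlapped at 2.99, 2.14 and 2.13 FPKM in blebbistatin and 2.16, 3.37 and 2.35 FPKM in control libraries.

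Epha5, a receptor of forebrain neurons, averaged under 1 FPKM and was not tested. It had 0.270, 0.487 and 0.554 FPKM in blebbistatin libraries, about 59, 107 and 119 fragments, and 0.707, 0.978 and 0.870 FPKM in control libraries, about 155, 256 and 193 fragments. No blebbistatin value reached a control value, and with no filter on low values its log2 fold change was -0.37 ± 0.09 (SE, adjusted p = 0.322, limma). Epha3, Epha6, Epha8 and Epha10 did not exceed 0.142 FPKM. The end bud sum was lower in the same libraries as Epha2 and Epha5. Kit, the receptor kinase of end bud cells, had the largest difference of the 10 end bud markers tested. It stood at 5.38, 16.3 and 16.2 FPKM in blebbistatin libraries and 21.5, 36.4 and 32.6 FPKM in control libraries. Blebbistatin replicate 1 was the lowest library for Kit and for Epha2, Epha5 and Epha7. Extremes were common in that library: of the 24 tested members it was the lowest for 6 and the highest for 8. Of the 10 markers, 8 had a log2 fold change under 0 and 2 above 0 (Spry1, without overlap, and Spry2). What part end bud cells have in the values of these receptors was not tested.

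Of the B-class receptors, Ephb4 was the most abundant and differed little. It stood at 70.7, 63.9 and 62.0 FPKM in blebbistatin libraries and 73.2, 67.5 and 67.7 FPKM in control libraries, and the groups overlapped (log2 fold change -0.08 ± 0.09, SE, 95% interval -0.29 to 0.12). Leaving out blebbistatin replicate 1 gave -0.14, and leaving out blebbistatin replicate 3 gave -0.05. Ephb3, a receptor that sorts cells along the intestinal crypt, had a small difference with no overlap, at 21.6, 22.5 and 22.8 FPKM in blebbistatin and 24.7, 26.2 and 25.5 FPKM in control libraries. Its log2 fold change was -0.18 ± 0.08 (SE, 95% interval -0.36 to -0.0044, adjusted p = 0.516, limma). Ephb2, which acts with Ephb3 in the crypt, overlapped at 9.92, 7.58 and 7.28 FPKM and 8.70, 8.65 and 6.88 FPKM in controls. Ephb6, whose kinase domain lacks activity, had 6.64, 6.16 and 5.83 FPKM in blebbistatin and 7.45, 6.41 and 7.35 FPKM in control libraries. Ephb1 was the least abundant, at 0.982, 1.40 and 1.36 FPKM and 1.50, 2.36 and 1.25 FPKM in controls. The summed EphA and EphB receptor FPKM was 184, 201 and 189 in blebbistatin libraries and 220, 224 and 215 in control libraries. The Epha2 means, 50.6 ± 12.4 and 73.7 ± 3.53 FPKM, differ by most of that amount.

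**Figure D4:**
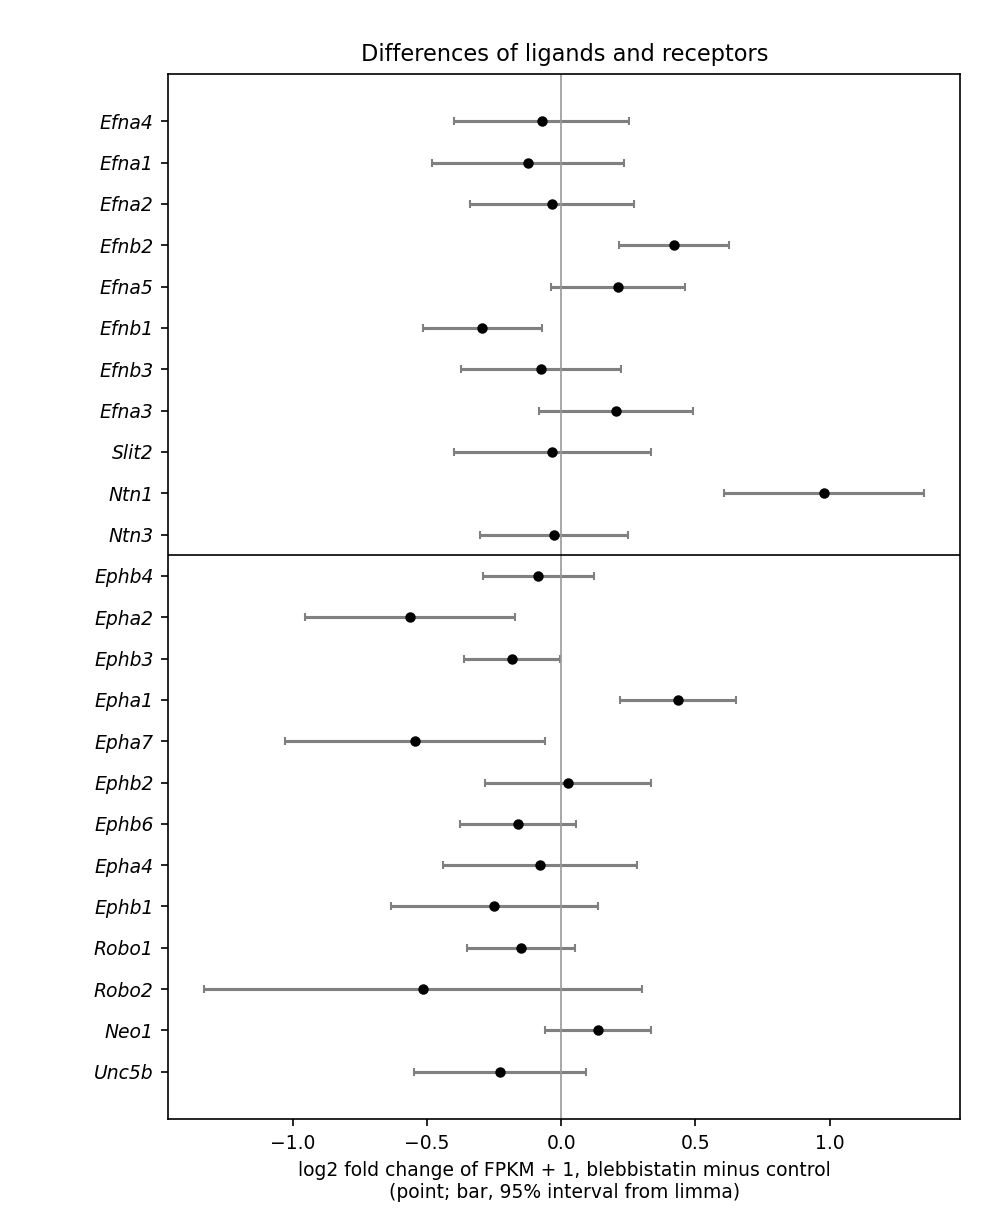
The log2 fold change of each tested member (points; horizontal axis, blebbistatin minus control on log2(FPKM + 1)) with its 95% interval from limma (bars), ligands above the black line. Intervals of Ntn1, Efnb2 and Epha1 lie above 0 and those of Efnb1, Epha2, Epha7 and Ephb3 under 0, before any adjustment for the number of genes tested.

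The Robo receptors were led by Robo1, a main receptor of Slit2. Robo1 stood at 6.25, 6.08 and 6.90 FPKM in blebbistatin and 6.81, 7.43 and 7.40 FPKM in control libraries, with control replicate 1 just under blebbistatin replicate 3 (log2 fold change -0.15 ± 0.09, SE). Robo2 varied more between libraries of a group than any other tested member. It had 0.799, 1.58 and 2.76 FPKM in blebbistatin libraries and 1.40, 2.54 and 4.98 FPKM in control libraries, and the standard error of its log2 fold change was 0.36 for a value of -0.51. In both groups its values rose from replicate 1 to replicate 3, and no label says whether the numbers pair the libraries. Leaving out control replicate 3 gave -0.17, and leaving out control replicate 1 gave -0.83. Robo3, of commissural neurons, and Robo4, of endothelium, did not exceed 0.0287 FPKM, at most about 3 fragments in a library.

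Of the netrin receptors, neogenin (Neo1) was by far the most abundant, with 90.0 ± 1.32% of the summed FPKM of this group in blebbistatin libraries and 86.2 ± 2.03% in controls (SD, n = 3 each). It stood at 34.0, 33.8 and 34.6 FPKM in blebbistatin libraries and 28.6, 33.1 and 31.2 FPKM in control libraries. Every blebbistatin value was the higher, by little (log2 fold change 0.14 ± 0.09, SE, 95% interval -0.06 to 0.34, adjusted p = 0.774, limma), and the value was 0.084 without control replicate 1. Unc5b, a netrin receptor of tip cells in vessels, had 3.58, 3.30 and 2.57 FPKM in blebbistatin and 4.03, 4.44 and 3.15 FPKM in control libraries, which overlapped.

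Dcc, the receptor through which netrin-1 attracts axons, did not exceed 0.0104 FPKM in any library, about 3 fragments. Unc5a, which with Unc5c mediates repulsion from netrin-1, had 0.204, 0.344 and 0.253 FPKM in blebbistatin libraries and 0.700, 0.527 and 0.402 FPKM in control libraries. These are about 23, 39 and 28 fragments and 78, 70 and 46 fragments, without overlap, and with no filter on low values the log2 fold change was -0.28 ± 0.08 (SE, adjusted p = 0.361, limma). Unc5c had 0.371, 0.322 and 0.374 FPKM in blebbistatin and 0.555, 0.428 and 0.533 FPKM in control libraries, also without overlap. Robo3 did not overlap either, at about 3, 2 and 1 fragments in blebbistatin and 1, 0 and 0 in control libraries. No share over all genes is given for overlap under 1 FPKM. The lack of overlap of Ntng1, Epha5, Unc5a, Unc5c and Robo3 is therefore a description only. With no filter all 41 members and every other gene above 0 entered the fit, and 10 had an unadjusted p under 0.05, 4 higher and 6 lower, where 8.59% of all genes in that fit did, while 0 passed the adjusted threshold in limma (0.00543% of the 18408 genes above 0 did).

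No transcript of a member passed either. Of 29 transcripts tested, from the 24 tested genes, 0 had an adjusted p under 0.05 in limma (0.00692% of all transcripts did), and 8 had an unadjusted p under 0.05 (27.6%, against 8.08% of all transcripts). These 8 are forms of the 7 genes that had an unadjusted p under 0.05, Ntn1 among them. They repeat that result and add no further one. Epha7 is annotated with reading frames of 998, 994 and 610 codons, the shortest being of the kind that lacks the kinase domain. The 998-codon form held 74.9 ± 4.74% of its FPKM in blebbistatin libraries and 71.1 ± 4.70% in controls, and the 610-codon form 10.2 ± 1.99% and 9.08 ± 0.358% (SD, n = 3 each).

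A share of transcripts separated the groups most in Ephb6. Its transcripts of 3760 and 3756 nt both encode 1014 codons. How many fragments tell these forms apart is not known, so the deposited split between them is an estimate. The 3756 nt form made up 4.26%, 0.000393% and 2.64% of the gene in blebbistatin libraries and 16.7%, 11.5% and 10.1% in control libraries. All blebbistatin shares were lower, by 0.24 ± 0.06 (SE) on the arcsine square root scale, which did not pass (adjusted p = 0.962, limma), as 0.00% of all shares tested did. Of the 11 shares tested in 5 member genes, 4 did not overlap between the groups, both forms of Ephb6 and both of Ephb4, and 9.37% of all shares tested did not overlap. Since forms of a gene sum to 1, each pair is a single difference. The 987-codon form of Ephb4 held 89.3 ± 0.642% in blebbistatin libraries and 90.5 ± 0.741% in controls (SD, n = 3 each). Efna5, Ephb2, Neo1 and Slit2 were each carried mainly by 1 form in both groups, at a mean of 77.4% to 96.9% of the gene.

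**Figure D5:**
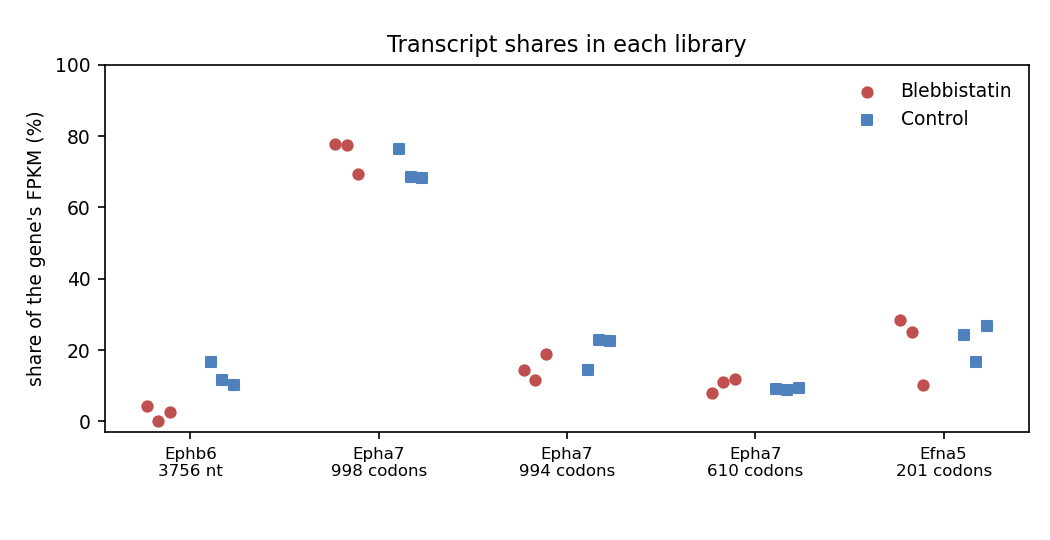
Estimated share of the gene's FPKM (vertical axis, percent) taken by single transcripts of Ephb6, Epha7 and Efna5 in each library, blebbistatin as circles left of control as squares. The 3756 nt form of Ephb6 lies between 0.000393% and 4.26% in blebbistatin and between 10.1% and 16.7% in control libraries; the other forms overlap.

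Genes that act downstream of or beside these receptors were taken from lists made with results of these data known. Of 30 effectors of Eph and ephrin signalling 28 were tested, 0 passed the adjusted threshold in limma, 1 higher and 1 lower had an unadjusted p under 0.05 (7.14%, against 9.36% of all genes), and 9 did not overlap (1 higher, 8 lower, 32.1% of those tested against 14.3% of all genes). Vav3, an exchange factor recruited by Eph receptors, had 12.9, 11.1 and 10.7 FPKM in blebbistatin and 8.81, 7.55 and 7.87 FPKM in control libraries (log2 fold change 0.47 ± 0.10, SE, adjusted p = 0.138, limma). Chn2, a Rac-inactivating chimaerin whose relative Chn1 acts under Epha4, had 0.499, 1.11 and 0.930 FPKM against 1.42, 2.42 and 1.80 FPKM in controls (-0.64 ± 0.18, SE, adjusted p = 0.224, limma). The blebbistatin mean of Chn2, 0.845 FPKM, lies under the filter of 1 FPKM, so it was tested because of its control values. Vav3 and Chn2 differed without overlap, in opposite directions. Fyn, a Src family kinase of both ephrin and Eph signalling, had 17.7, 19.2 and 17.4 FPKM and 21.0, 22.1 and 19.5 FPKM in controls.

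All 17 effectors of Slit and Robo signalling were tested, 0 passed in limma, and 2 had an unadjusted p under 0.05, both lower (11.8%, against 9.36% of all genes). Srgap3 and Srgap1 encode proteins that bind Robo1. Srgap3 had 2.57, 3.01 and 3.19 FPKM in blebbistatin libraries and 3.46, 4.69 and 4.57 FPKM in control libraries (log2 fold change -0.41 ± 0.13, SE, adjusted p = 0.279, limma). Srgap1 overlapped at 5.50, 4.31 and 4.18 FPKM and 5.21, 6.69 and 5.99 FPKM in controls. Vasp, an actin elongation factor, was the next by p at 59.8, 62.5 and 58.2 FPKM and 66.2, 68.8 and 66.6 FPKM in controls, without overlap.

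Of 16 effectors of netrin signalling 14 were tested, and 0 had an unadjusted p under 0.05 or passed in limma. The smallest p values belonged to Dapk1 (log2 fold change -0.17 ± 0.10, SE), a death-associated kinase that acts under Unc5b, Dock1 (-0.14 ± 0.11), an exchange factor for Rac, and Rock2 (0.18 ± 0.17), a kinase that activates myosin II. Of 17 other ligands and cofactors 12 were tested, 0 passed in limma, and 2 had an unadjusted p under 0.05 (16.7%, against 9.36% of all genes). These were Lrig1 at 19.6, 11.7 and 12.7 FPKM in blebbistatin libraries and 11.0, 9.50 and 9.29 FPKM in control libraries, and its relative Lrig3 at 7.86, 7.83 and 6.96 FPKM and 5.81, 5.85 and 6.76 FPKM in controls. Neither overlapped between the groups, as for 14.3% of all genes, and both encode transmembrane proteins with leucine-rich repeats. Flrt3, a ligand of Unc5b, overlapped at 4.72, 6.74 and 6.09 FPKM in blebbistatin and 3.94, 5.32 and 4.25 FPKM in control libraries.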

How the data were processed

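Gene and transcript FPKM were used as deposited by the authors for the RefSeq annotation on mm10. The submitters' processing notes name Cufflinks 2.2.1, Bowtie2 2.2.3 and TopHat2 2.0.13, and no source states the strand. Columns named BB were taken as blebbistatin, and those without a number as replicate 1. Depth was estimated from single-transcript genes over 2500 nt.

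Genes, and transcripts, with a mean of at least 1 FPKM over the 6 libraries were fitted as log2(FPKM + 1) with limma 3.58.1 (R 4.3.3), with a mean-variance trend and treatment as the only term. Fold changes on this scale understate those of low genes. P-values were adjusted by Benjamini-Hochberg over all 11540 genes or 14460 transcripts. Shares of 4997 transcripts in genes with a sum of at least 5 FPKM were fitted on the arcsine square root scale. The fit was run on simulated data with known changes larger than that of any tested member. Its power at smaller sizes was not tested.

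Members and lists were chosen with earlier results of these data known. Every member averaging 1 FPKM is named, others where a library reached 0.5 FPKM, and up to 3 effectors of smallest p per list. Alternatives were other pseudocounts, filters, scalings and weights, the replicate number as a block, and each library left out.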

Additional observations from a re-analysis of the deposited data

How the results depend on the processing

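The count of guidance genes past the threshold was 0 with other pseudocounts, filters and scalings and without any 1 library (lowest and highest 0), 1 with array weights (Ntn1) and 2 with the replicate block (Ntn1, adjusted p = 0.0338, and Epha1, adjusted p = 0.0415). Next by p with the block were Epha7, Efnb2 and Robo2 (adjusted p = 0.0546, 0.0628 and 0.0701, limma). The SE of the Robo2 log2 fold change was 0.093 with the block and 0.36 without it. The labels do not say that numbers pair the libraries. Deviations of same-numbered libraries correlated at 0.18, 0.094 and 0.25 across genes, and each library correlated best with its own number, a hint from the data and not the design. No guidance transcript or share passed under any alternative run. Over all genes the count of 9 was 1 with no filter, 14 after quantile normalization, 27 for genes averaging 5 FPKM or more, 2 after median-of-ratios rescaling, 57 with array weights, 144 with the replicate block, and 1 to 13 with 1 library left out (2 and 4 without blebbistatin replicates 1 and 2, 1 and 2 without control replicates 1 and 2); the cause was not tested. Of the 24 tested members, 16 kept their direction under every alternative run. The other 8 had small log2 fold changes that changed sign when 1 library was left out, ranging from -0.24 to 0.031 for Efna1, -0.19 to 0.0029 for Efnb3, -0.17 to 0.064 for Efna4, -0.20 to 0.061 for Epha4, -0.13 to 0.087 for Efna2, -0.11 to 0.029 for Ntn3, -0.20 to 0.051 for Slit2 and -0.10 to 0.0998 for Ephb2. Efna2 was also at 0.014 with array weights. With 3 libraries a group, members under 1 FPKM rest on few fragments, at most 256 in a library for Epha5. Ntn1 rests on a similar number in control libraries, at about 188, 176 and 141.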
